A study of Oncorhynchus mykiss with 8 samples.

Results

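The genes described here are the cholesterol synthesis enzymes that the study named on its salmonid array, measured in the liver of small and large rainbow trout. They were found by name: a probe was taken if its name in the study's liver or muscle lists held 1 of a fixed set of words for enzymes of the pathway, such as squalene, farnesyl, lathosterol, sterol reductase or 7-dehydrocholesterol. This gave 11 probes of the 43603 on the array, of which 1494 carried any name. The 11 probes stand for 6 enzymes. Isopentenyl-diphosphate delta-isomerase 1, farnesyl pyrophosphate synthetase and delta (14)-sterol reductase had 1 probe each, squalene monooxygenase and a lathosterol oxidase-like enzyme had 2 each, and 7-dehydrocholesterol reductase had 4. No probe was named for HMG-CoA reductase, the rate-limiting enzyme of the pathway, for squalene synthase or for lanosterol synthase.

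Cholesterol is built in the cytosol and endoplasmic reticulum from acetyl-CoA, which is carried through mevalonate to isoprenoid units, then to farnesyl pyrophosphate and squalene, and after ring closure through a chain of sterols. The liver is a main site of this synthesis in vertebrates and exports cholesterol in lipoproteins and as bile acids. In mammals the genes of the pathway are switched on together by the transcription factor SREBP-2 when membranes hold little sterol.

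The fish were of the Lyndon strain, reared at 1 station and sampled at 15 months of age. The labels give their feeding as ad libitum, while the study's methods describe a ration set by body weight. The methods also state a fast of 2 days before weighing, and the fish were weighed at about 15 months. Small fish and large fish were taken from a Sept. lot, sampled towards the winter solstice, and from a Dec. lot, sampled towards spring, each lot bred from 5 females and 1 male. A pool held liver mRNA of 5 fish of 1 size, 1 from each female's offspring, and each lot had 2 pairs of a small and a large pool. Per the study's methods, 1 pair set each female's largest offspring against the second smallest. The other set the second largest against the smallest. The pool pairs of a lot therefore also differ in size rank, and the labels do not say which number is which. Each pool pair was hybridized on 2 arrays, with the fluorescent dyes exchanged, which gave 4 arrays per lot and 8 in all. Arrays on which small fish carried Alexa Fluor 555 are called 555 arrays, and those on which they carried Alexa Fluor 647 are called 647 arrays. Pooling hides the spread between single fish, so the errors below are between pool pairs (n = 2 in each lot). A ratio from bulk liver cannot tell a different number of cells from a different amount of RNA per cell.

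Every value is log2 of the ratio of small to large fish, so that 1 is a doubling in small fish. The deposited values do not state which channel is on top, and the direction was taken from the study's own liver lists. Of their 726 entries, 725 lay on the listed side when no array was turned, against 326 when the sign was turned on the 555 arrays. Those lists come from the study's analysis of these same arrays. The match therefore shows how the study read the values and is no independent test of the direction. The arrays held a value for 36754 to 41918 probes, and all 11 probes had a value on all 8 arrays. The log2 ratios give no signal level, so the liver identity of the pools and the abundance of the transcripts could not be read from them. Across all probes, arrays of the same dye orientation correlated with each other at 0.05 to 0.36 and arrays of opposite orientation at -0.27 to 0.06, a split that bears on the values below.

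Names came with a selection. The study named only the probes it called different between the sizes, 6 of the 11 through its list for small Sept. fish and 4 through its list for small Dec. fish. Farnesyl pyrophosphate synthetase, one of the 4 from Dec., was also listed for large Dec. fish in muscle, and 1 probe of 7-dehydrocholesterol reductase (A_05_P271219) was listed in muscle alone. A value in the lot that named a probe is therefore a description, and only the other lot gives a test. Differences were fitted in limma over all probes, with the 2 arrays of a pool pair averaged. The spread was shared by both lots, so that a probe has 1 SE for both. Differences were counted where the unadjusted p was at most 0.05 and the fold at least 1.2, as the study did. The SE in the other lot thus also holds the spread of the lot that named the probe, so its test is not free of the selection.

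**Figure D1:**
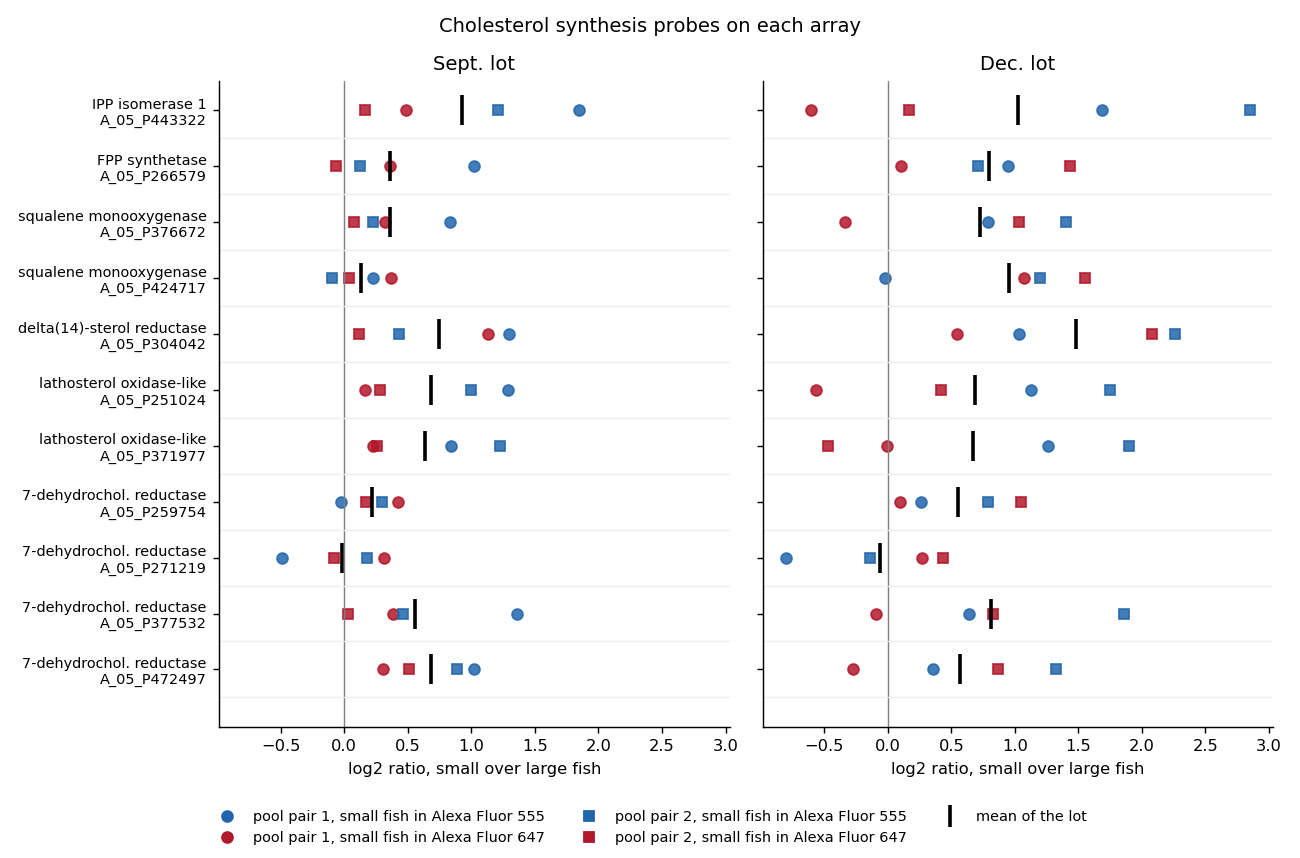
Log2 ratio of small over large fish (horizontal axis) for each of the 11 probes in pathway order (vertical axis), in the Sept. lot (left) and the Dec. lot (right). Each point is 1 array, with circles for pool pair 1, squares for pool pair 2, blue for 555 arrays and red for 647 arrays, and the black bar is the mean of the lot. The means lie above 0 for 10 of 11 probes in both lots, and many blue points lie right of the red ones.

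Isopentenyl-diphosphate delta-isomerase 1 (A_05_P443322) interconverts the pair of 5-carbon units from which all isoprenoids are assembled. It was named for small Sept. fish, where its ratios in pool pairs 1 and 2 were 1.84 and 1.21 on the 555 arrays and 0.48 and 0.16 on the 647 arrays, a mean of 0.92 (SE 0.28). In the Dec. lot, which did not choose it, the ratios were 1.68 and 2.85 on the 555 arrays and -0.60 and 0.16 on the 647 arrays. The Dec. mean of 1.02 (SE 0.28), a 2.03-fold level in small fish, passed the thresholds (limma, adjusted p = 0.99 over all probes). The dye orientations did not overlap in either lot, and the Dec. mean on the 647 arrays alone was -0.22.

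Farnesyl pyrophosphate synthetase (A_05_P266579) joins these units to the 15-carbon precursor of squalene, and also feeds the synthesis of dolichol and ubiquinone. Its Dec. ratios, on which it was named, were 0.94 and 0.71 on the 555 arrays and 0.10 and 1.44 on the 647 arrays, all 4 above 0, with a mean of 0.80 (SE 0.23). In the Sept. lot they were 1.02 and 0.12 on the 555 arrays and 0.36 and -0.06 on the 647 arrays. Pool pair 1 was high and pool pair 2 near 0, and the Sept. mean of 0.36 (SE 0.23) did not pass the thresholds (limma, adjusted p = 1.00).

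Squalene monooxygenase puts the oxygen into squalene that becomes the hydroxyl group of cholesterol and is a slow step of the pathway in mammals. Its probe A_05_P376672, named for small Sept. fish, had Sept. ratios of 0.83 and 0.22 on the 555 arrays and 0.32 and 0.07 on the 647 arrays, a mean of 0.36 (SE 0.28). The Dec. ratios of this probe were 0.79 and 1.40 on the 555 arrays and -0.33 and 1.04 on the 647 arrays. Their mean of 0.72 (SE 0.28) lay just short of the p threshold. The Dec. lot thus held both the lowest and the highest array for this probe.

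The second squalene monooxygenase probe (A_05_P424717), named for small Dec. fish, had Dec. ratios of -0.02 and 1.197 on the 555 arrays and 1.07 and 1.55 on the 647 arrays, a mean of 0.95 (SE 0.24). In the Sept. lot it had 0.22 and -0.10 on the 555 arrays and 0.37 and 0.04 on the 647 arrays. The Sept. means of pool pairs 1 and 2 were 0.30 and -0.03, and the lot mean of 0.13 (SE 0.24) did not pass the thresholds. In this probe the 647 arrays gave the higher ratios in both lots, the reverse of the first probe, so the 2 probes of 1 enzyme had their lot means on the same side of 0 and their dye differences on opposite sides.

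Delta (14)-sterol reductase (A_05_P304042) reduces the double bond left after the first methyl group has been taken from lanosterol. It had the highest Dec. mean of the 11 probes and was the only one above 0 on all 8 arrays. The 8 hold the Dec. arrays that chose it, so this is a description. In Sept., which did not choose it, all 4 arrays lay above 0, as for 5.00% of all probes. Its Dec. ratios, on which it was named, were 1.03 and 2.26 on the 555 arrays and 0.54 and 2.08 on the 647 arrays, a mean of 1.48 (SE 0.41) or a 2.79-fold level in small fish. The Sept. ratios were 1.30 and 0.43 on the 555 arrays and 1.13 and 0.11 on the 647 arrays. Both dye orientations gave close values within a pool pair, while the pool pairs stood apart, at 1.21 and 0.27, so that the Sept. mean of 0.74 (SE 0.41) did not pass the thresholds (limma, adjusted p = 1.00).

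The lathosterol oxidase-like enzyme, which in mammals (SC5D) introduces a double bond to turn lathosterol into 7-dehydrocholesterol, had 2 probes, both named for small Sept. fish. Probe A_05_P251024 had Sept. ratios of 1.29 and 1.00 on the 555 arrays and 0.16 and 0.28 on the 647 arrays, a mean of 0.68 (SE 0.22). Its Dec. ratios were 1.13 and 1.75 on the 555 arrays and -0.56 and 0.42 on the 647 arrays, with a mean of 0.68 (SE 0.22). The Dec. value passed the thresholds, at a 1.61-fold level in small fish (limma, adjusted p = 0.99), although 1 of the 4 Dec. arrays lay below 0.

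Probe A_05_P371977 of the same enzyme had Sept. ratios of 0.84 and 1.23 on the 555 arrays and 0.22 and 0.26 on the 647 arrays, a mean of 0.64 (SE 0.13). Its Dec. ratios were 1.26 and 1.90 on the 555 arrays and -0.01 and -0.47 on the 647 arrays, and their mean of 0.67 (SE 0.13), a 1.59-fold level in small fish, passed the thresholds (limma, adjusted p = 0.99). The lot means of the 2 probes differed by less than 0.05. Both also put the whole Dec. rise on the 555 arrays, at means of 1.44 and 1.58, while the Dec. means on the 647 arrays were -0.07 and -0.24.

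7-dehydrocholesterol reductase takes the last step, from 7-dehydrocholesterol to cholesterol, and also decides how much 7-dehydrocholesterol is left as the precursor of vitamin D. Probe A_05_P377532, named for small Sept. fish, had Sept. ratios of 1.36 and 0.46 on the 555 arrays and 0.38 and 0.03 on the 647 arrays, a mean of 0.56 (SE 0.31). Its Dec. ratios were 0.64 and 1.86 on the 555 arrays and -0.09 and 0.83 on the 647 arrays. Their mean of 0.81 (SE 0.31) lay just short of the p threshold. Pool pair 2 was the high one in Dec. and pool pair 1 in Sept.

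Probe A_05_P472497, also named for small Sept. fish, had Sept. ratios of 1.02 and 0.89 on the 555 arrays and 0.31 and 0.51 on the 647 arrays, a mean of 0.68 (SE 0.27). Its Dec. ratios were 0.36 and 1.33 on the 555 arrays and -0.27 and 0.87 on the 647 arrays, a mean of 0.57 (SE 0.27) that did not pass. Probe A_05_P259754, named for small Dec. fish, had low values in Sept., at -0.03 and 0.30 on the 555 arrays and 0.42 and 0.17 on the 647 arrays, a mean of 0.22 (SE 0.21) that did not pass. Its Dec. ratios were 0.26 and 0.79 on the 555 arrays and 0.09 and 1.05 on the 647 arrays, all 4 above 0, with a mean of 0.55 (SE 0.21).

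The fourth 7-dehydrocholesterol reductase probe (A_05_P271219) was the exception among the 11. It is the one that no liver list had named, so both lots test it. Its Sept. ratios were -0.49 and 0.18 on the 555 arrays and 0.31 and -0.08 on the 647 arrays, and its Dec. ratios were -0.80 and -0.14 on the 555 arrays and 0.27 and 0.43 on the 647 arrays. The means of -0.02 and -0.06 (SE 0.16 in both lots) did not pass the thresholds and were the only ones below 0. Which of the 4 probes report the same gene copy of this species, whose genome carries many duplicated genes, is not given by the names.

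In the Dec. lot, which did not choose them, 3 of the 6 probes named through the Sept. list were higher in small fish past the thresholds, where 2.09% of all probes tested were. They were the isomerase (1.02) and both lathosterol oxidase-like probes (0.68 and 0.67). Their shared SE also drew on the spread in Sept., the lot that chose them. The SD between pool pairs was 0.34 in Sept. and 0.68 in Dec. for the isomerase. For the lathosterol oxidase-like probes it was 0.06 and 0.57 (A_05_P251024) and 0.15 and 0.06 (A_05_P371977), in the same order of lots. With the Dec. lot fitted alone, 4 of the 6 passed in limma, where 1182 of all probes passed in either direction. By the methods' t-test within Dec., 0 passed over arrays and 1 over pool pairs. Of all probes, 709 passed over arrays and 499 over pool pairs, in either direction. A count of 0 or 1 among 6 is too small to be set apart from these. All 6 probes had a Dec. mean above 0, as 51.9% of all probes had, with a median of 0.70. The share past the thresholds went with dye orientation: all 6 were above 0 on both Dec. 555 arrays (25.9% of all probes), and none of the 6 on both Dec. 647 arrays (36.0% of all probes), since all 6 lay below 0 on that of pool pair 1. Fitted on the 555 arrays alone, 6 of 6 passed the thresholds for higher levels in small fish (5.55% of all probes). On the 647 arrays alone it was 0 of 6 (4.50% of all probes), where 3 of the means were below 0. The 6 probes had means of 0.71 to 1.51 in Dec. pool pair 2 and 0.04 to 0.63 in Dec. pool pair 1. With a Dec. pool pair left out, the remaining one had no spread of its own. The SE then came from the Sept. pool pairs alone, the lot that chose these probes. Counts without a Dec. pool pair are therefore no test over Dec. pools. Without Dec. pool pair 1 there were 6 of 6 (4.13% of all probes), and without Dec. pool pair 2 there was 1 (4.84% of all probes), the lathosterol oxidase-like probe A_05_P371977.

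In the Sept. lot, 0 of the 4 probes named through the Dec. list passed the thresholds for higher levels in small fish, where 1.52% of all probes did. Their Sept. means were all above 0 (50.3% of all probes), from 0.13 to 0.74 with a median of 0.29. Only delta (14)-sterol reductase was above 0 on all 4 Sept. arrays, as 5.00% of all probes were. At an adjusted p under 0.05, limma called 0 of 38679 probes in Sept. and 0 of 34014 in Dec., against 1054 and 1647 past the thresholds without adjustment. The methods' own test over arrays also called 0 after adjustment in both lots, and over pool pairs it called 4 in Sept. and 0 in Dec.

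The dye in which the small fish were labelled moved with the ratios of these probes, as was tested after the values had been seen. The ratio was higher on the 555 arrays than on the 647 arrays for 8 of 11 probes in each lot. Over all probes this held for 45.8% in Sept. and 44.1% in Dec. Over the 4 pool pairs the difference passed an unadjusted p of 0.05 in this direction for 6 of the 11 (14.5% of all probes). At an adjusted p under 0.05 (limma) it did so for 4 (5.48% of all probes). The isomerase had the widest difference, 1.85 (SE 0.29, adjusted p = 0.025), with means of 1.90 on the 555 arrays and 0.05 on the 647 arrays. The lathosterol oxidase-like probes followed with 1.31 (SE 0.29, adjusted p = 0.046, A_05_P371977) and 1.22 (SE 0.20, adjusted p = 0.026, A_05_P251024), and probe A_05_P377532 of 7-dehydrocholesterol reductase with 0.79 (SE 0.175, adjusted p = 0.046).

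The 6 probes that passed this dye comparison without adjustment were those named through the Sept. list. In the 4 probes named through the Dec. list the differences were between -0.43 and 0.29 and did not pass. Delta (14)-sterol reductase had means of 1.25 on the 555 arrays and 0.97 on the 647 arrays, and farnesyl pyrophosphate synthetase had 0.70 and 0.46 in the same order of dyes. Each pool pair was hybridized once in each orientation, so with the ratios read as small over large fish a dye difference of constant size cancels in the lot means, though not in the values within 1 orientation.

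**Figure D2:**
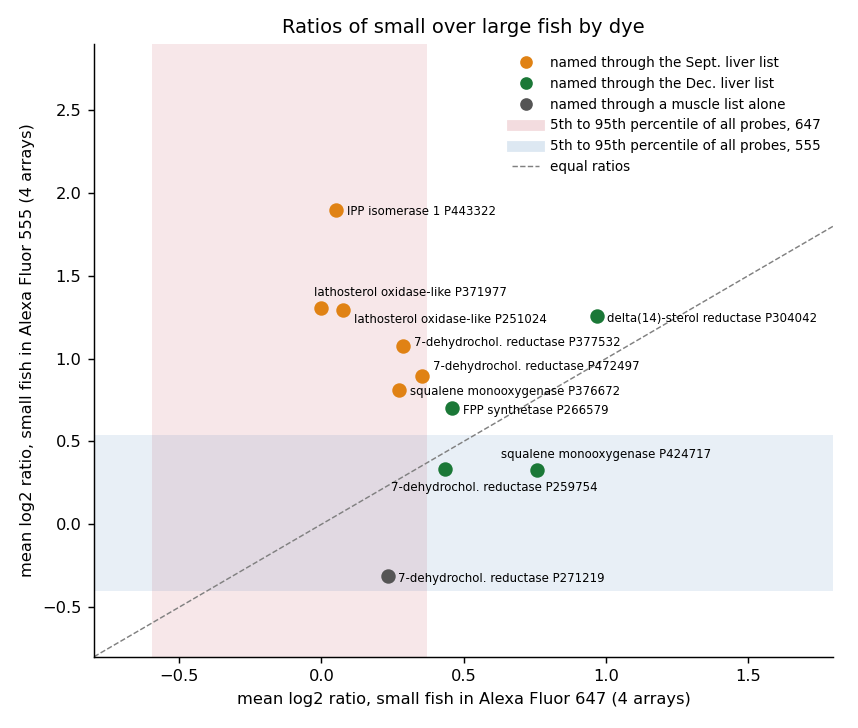
Mean log2 ratio of small over large fish over the 555 arrays (vertical axis) against the mean over the 647 arrays (horizontal axis), 4 arrays each, 1 point per probe, colored by the list that named it. Shaded bands run from the 5th to the 95th percentile of all probes (-0.40 to 0.54 on the 555 arrays and -0.60 to 0.37 on the 647 arrays), and the dashed line marks equal ratios. The 6 probes named through the Sept. list lie above the upper limit on the 555 arrays and within the band on the 647 arrays. Delta (14)-sterol reductase and farnesyl pyrophosphate synthetase are beyond both.

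The pool pairs of the Dec. lot also stood apart. All 11 probes had a higher ratio in Dec. pool pair 2 than in Dec. pool pair 1, where 50.7% of all probes did, with medians over the 11 of 1.10 in pool pair 2 and 0.28 in pool pair 1. The gap was widest for delta (14)-sterol reductase, at 2.17 in pool pair 2 and 0.79 in pool pair 1, and narrowest for the lathosterol oxidase-like probe A_05_P371977, at 0.71 in pool pair 2 and 0.63 in pool pair 1. Probe A_05_P472497 of 7-dehydrocholesterol reductase had 1.10 in pool pair 2 and 0.04 in pool pair 1, so that its Dec. mean rested on 1 pool pair. In the Sept. lot 4 of 11 probes were higher in pool pair 2 (46.8% of all probes), with medians of 0.25 in pool pair 2 and 0.66 in pool pair 1. Probes of 1 pathway on the same arrays share their pools, so the 11 are not independent of each other. The pool pairs of a lot also differ in size rank, and the part of rank in these gaps was not tested.

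**Figure D3:**
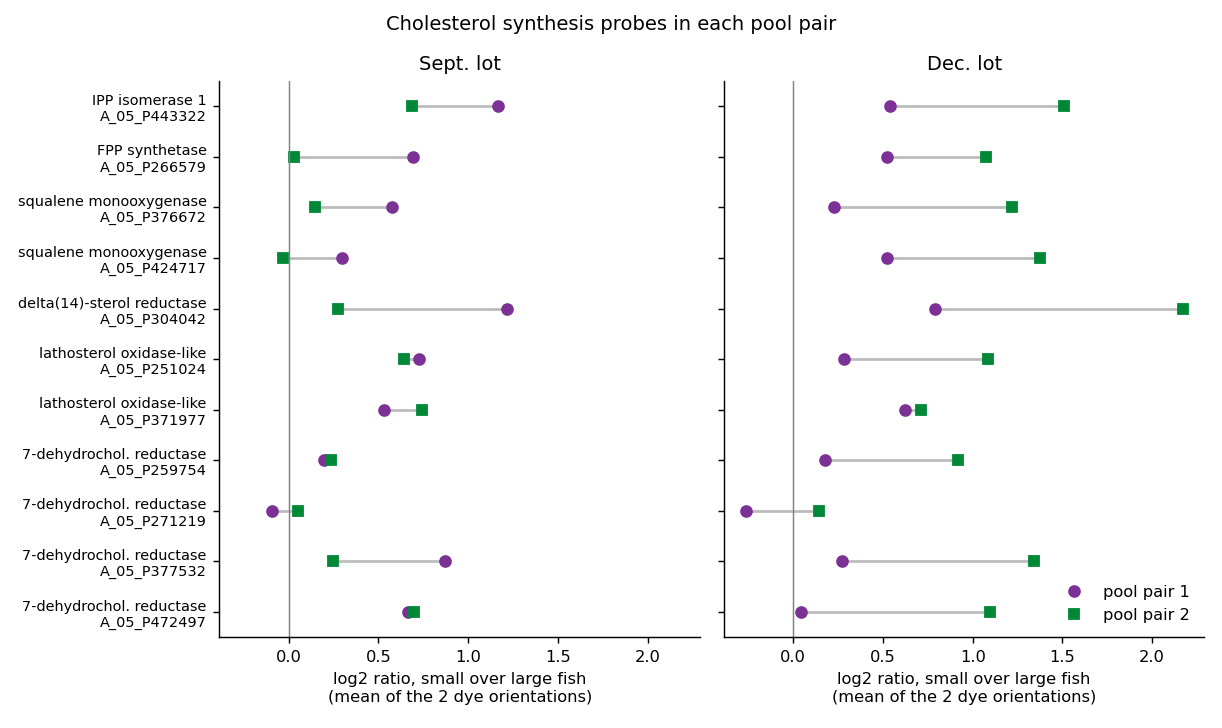
Log2 ratio of small over large fish in each pool pair, averaged over both dye orientations (horizontal axis), for each probe in pathway order (vertical axis), in the Sept. lot (left) and the Dec. lot (right). Circles are pool pair 1 and squares pool pair 2. In Dec. every square lies right of its circle, with medians of 1.10 in pool pair 2 and 0.28 in pool pair 1.

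The size difference was compared between the lots in the same fit. No probe of the 11 passed an unadjusted p of 0.05 for Sept. minus Dec., where 2.75% of all probes did. The nearest was squalene monooxygenase probe A_05_P424717, with means of 0.13 in Sept. and 0.95 in Dec. and a difference of -0.82 (SE 0.34, limma, adjusted p = 1.00), a probe named for a high value in Dec. The isomerase and both lathosterol oxidase-like probes differed between the lots by less than 1 standard error. The SE of the difference ran from 0.19 to 0.57 over the 11 probes. The differences depended on the Dec. pool pairs. With a Dec. pool pair left out, the SE again came from the Sept. pool pairs alone. The counts that follow are therefore no test over Dec. pools. Without Dec. pool pair 1, 4 probes passed with lower ratios in Sept. than in Dec. (2.97% of all probes), squalene monooxygenase (both probes), delta (14)-sterol reductase and 7-dehydrocholesterol reductase A_05_P259754. Without Dec. pool pair 2, 1 passed with a higher ratio in Sept. (4.51% of all probes), 7-dehydrocholesterol reductase A_05_P472497.

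Set beside all probes as a description, the 11 had a median mean ratio of 0.56 in Sept. and 0.72 in Dec., against 0.00 and 0.01 over all probes of the 2 lots. A mean above 0 in both lots was found for 10 of 11 probes and for 27.0% of all probes. These figures hold the lots that chose the probes. On the 647 arrays alone the median over the 11 was 0.22 in Sept. and 0.35 in Dec., and on the 555 arrays alone 0.86 in Sept. and 1.10 in Dec.

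Other genes around the pathway were taken from fixed name patterns. Over all probes, 2.72% passed the thresholds in either direction in Sept. and 4.84% in Dec. The patterns for other steps of sterol synthesis found 3 probes, all named through the study's Sept. liver lists. Sterol-c4-methyl oxidase-like, which starts the removal of the methyl groups at carbon 4 of the sterol ring, had Dec. means of 0.31 (SE 0.21, A_05_P371933) and 0.26 (SE 0.17, A_05_P477862), and Sept. means of 0.45 and 0.38. Neither probe passed the thresholds in Dec., which is the lot that tests them. The third, hydroxymethylglutaryl- mitochondrial-like (A_05_P404207), has a shortened name that does not give the enzyme. That name points to the mitochondrion, not to the cytosol or endoplasmic reticulum where cholesterol is built, so it was found by pattern only. This probe lay at -0.89 (SE 0.21) in Sept., where it was listed for large fish, and at -0.13 (SE 0.21) in Dec. Of these 3 probes, 0 passed in either direction in Dec.

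Of 6 probes for the control, uptake and transport of sterols, 0 passed the thresholds in Sept. and 1 in Dec. This was apolipoprotein b 100 (A_05_P255119), the protein frame of the lipoproteins that carry cholesterol from the liver, which fell by 0.51 (SE 0.18) in small Dec. fish. Its arrays were 0.03 and 0.34 on the 555 arrays and -1.43 and -0.96 on the 647 arrays, and a second probe of the name (A_05_P486052) had a Dec. mean of 0.04 (SE 0.13). The median over the 6 probes was -0.20 in Sept. and -0.34 in Dec. Of the 6 probes, 1 lay above 0 in Dec., the second apolipoprotein b probe.

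Of 7 probes for the supply of acetyl-CoA and NADPH and for fatty acid synthesis, 3 passed in Sept., all higher in small fish, and 0 in Dec. The 3 were isocitrate dehydrogenase (0.63), which can supply NADPH in the cytosol, and the fatty acid elongase probes A_05_P457892 (0.60) and A_05_P321262 (0.57), and all of them had been named through the Sept. list. Their Dec. means were -0.39, 0.14 and 0.13 in the same order of probes. Of the 4 probes with a name from elsewhere, ATP citrate lyase, which makes cytosolic acetyl-CoA, had Sept. means of -0.03 and 0.13 and Dec. means of 0.24 and -0.01, and none of the 4 passed in either lot. NADP-dependent malic enzyme (A_05_P419472), another of the 4, had the lowest Dec. mean of the 7 probes, at -0.72, against 0.12 for Sept. Its shared SE was 0.30. Its Dec. ratios averaged 0.50 on the 555 arrays and -1.94 on the 647 arrays. Delta-6 fatty acyl desaturase, an enzyme of polyunsaturated fatty acid synthesis, had 0.43 (SE 0.20) in Sept. and 0.30 (SE 0.20) in Dec.

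**Figure D4:**
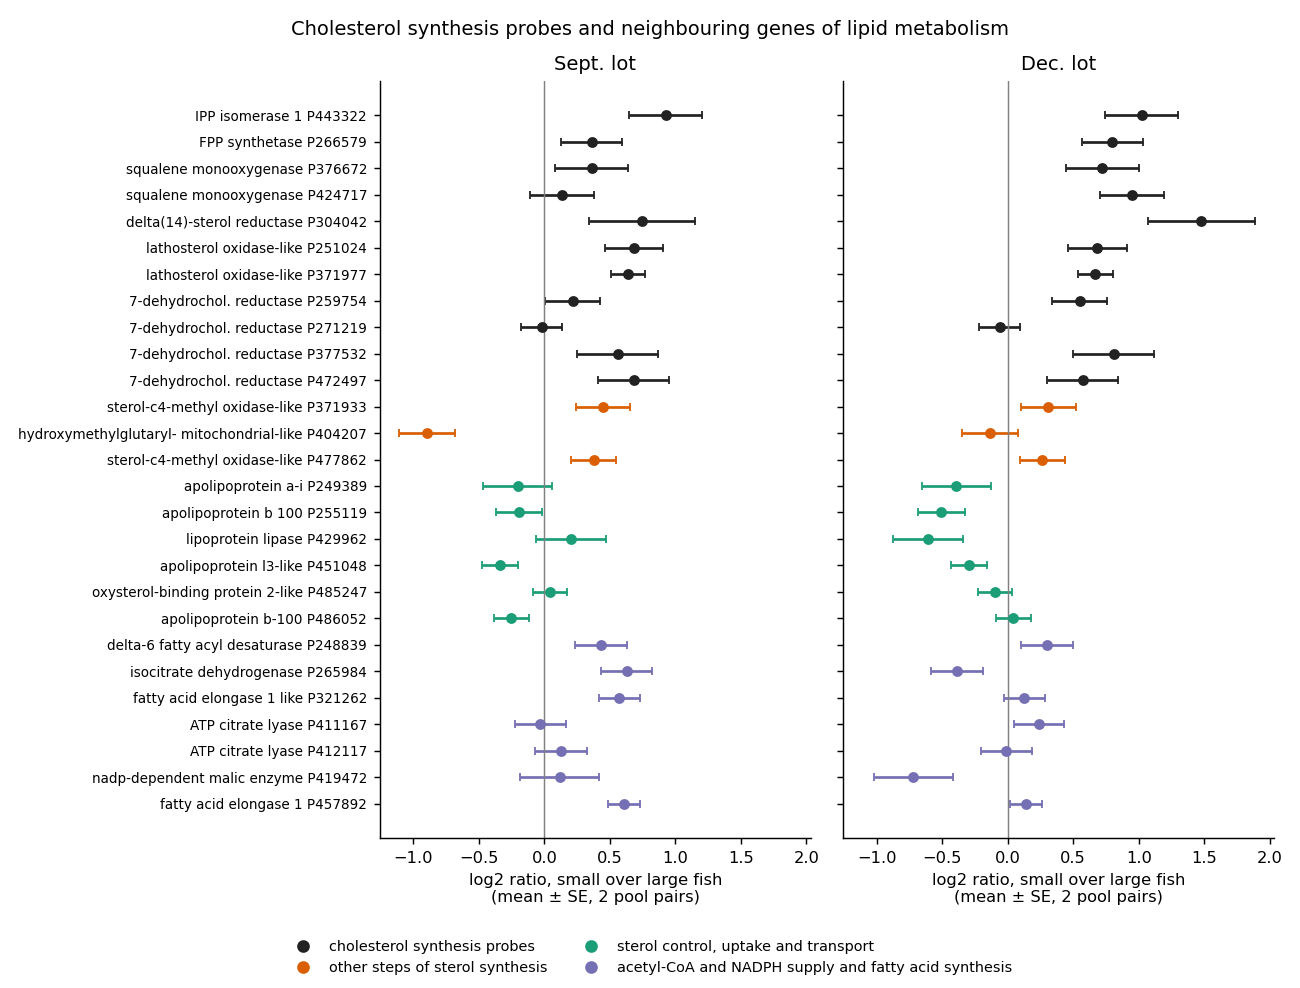
Mean log2 ratio of small over large fish with its standard error (horizontal axis) for the 11 cholesterol synthesis probes (black) and for 16 probes of neighbouring steps (colored by list, vertical axis), in the Sept. lot (left) and the Dec. lot (right). Means are over the 2 pool pairs of a lot, and the standard error of a probe comes from the spread shared by both lots. The synthesis probes lie between -0.06 and 1.48 in Dec., and the sterol transport probes between -0.61 and 0.04.

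Markers of other cells were followed as lists. Most of the red blood cell probes (13 in all) had been named through the study's liver lists, so their counts are in part a description. They moved with size in opposite directions in the lots. Past the thresholds, 6 of 13 were lower in small Sept. fish, where 2.72% of all probes passed in either direction. In small Dec. fish 10 of 13 were higher (2.09% of all probes). Their array medians ran from -0.58 to -0.09 in Sept. and from 0.40 to 1.01 in Dec., while the median of the 11 synthesis probes was above 0 on all 4 Sept. arrays (0.11 to 1.02) and on 3 of 4 Dec. arrays (-0.01 to 1.40). Hepatocyte genes (8 probes, serum albumin, fibrinogen chains and apolipoprotein a-i) had 0 past the thresholds in either lot, with array medians of -0.28 to 0.39 in Sept. and -0.73 to 0.11 in Dec. Their means were above 0 for 3 of 8 in Sept. and for 0 of 8 in Dec. (51.9% of all probes), where they ran from -0.51 to -0.10. Probes named for troponin, myosin, parvalbumin or creatine kinase, sought as skeletal muscle names, also took in myosins of smooth muscle and non-muscle cells and cardiac forms. Of the 23 tested, 2 were higher in small Sept. fish, a slow skeletal troponin I and a smooth muscle myosin light chain, and 1 was lower in both lots, a fast muscle troponin T. The study's liver lists had named each of these. The names found for the exocrine pancreas (4 probes) held no digestive enzyme of that tissue. Of these probes, 1 was lower in small Sept. fish, and in small Dec. fish 1 was higher and 1 lower. The egg protein list (2 probes) had 1 probe lower in small Sept. fish and 1 lower in small Dec. fish. Over all probes, 2.72% passed the thresholds in either direction in Sept. and 4.84% in Dec. The part of these cells in the ratios of the synthesis enzymes was not tested.

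Among the 11, the likeness of pattern over the 8 arrays varied. Squalene monooxygenase A_05_P376672 (r = 0.96 with the median of the other 10 probes), 7-dehydrocholesterol reductase A_05_P377532 (0.94) and delta (14)-sterol reductase (0.87) followed the rest most closely, while squalene monooxygenase A_05_P424717 (0.27) and the muscle-named 7-dehydrocholesterol reductase A_05_P271219 (-0.39) did not. These are descriptions over 8 arrays that share pools in pairs and hold both dye orientations. Of 1390 other named probes, those most like the median of the 11 were hp protein (r = 0.95), trf (0.93), signal recognition particle 68 kda protein (0.91), topoisomerase II-associated protein PAT1 (0.91) and ATP-binding cassette sub-family f member 3-like (0.91). All 5 had means below 0 in both lots, so the likeness lies in which arrays were high and low and not in the size difference.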

How the data were processed

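Liver RNA of small and large fish was compared on 8 two-color Agilent arrays (2 pool pairs per lot, each with a dye flip). Per the study's methods, the authors read the spots with GenePix Pro, discarded rejected and weak ones and applied lowess normalization in GeneSpring. The deposited table holds the resulting log2 ratios, which were not centered again. No counts or channel signals were used here, and the number of arrays limits the precision. Of 43663 lines 60 controls were left out. The pools of a lot are labelled as separate; p-values measure the spread between pools.

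Dye flips were averaged per pool pair and fitted with limma 3.58.1 (R 4.3.3; lmFit and eBayes, a mean per lot, 1 spread for both lots), over probes with values on all 4 arrays of a lot, p-values adjusted by Benjamini-Hochberg over all probes. Tables were made with Python and pandas. Names, never values, came from the study's lists and from the platform annotation (221 probes). The members, gene lists and tests were chosen with earlier results of these data known. Every member and the 5 most alike probes were named, and every probe of the fixed name patterns was named or counted. Alternatives included other tests, 1 dye orientation, turned signs, centering, filters, folds, robust estimation, a replicate block and leaving out pool pairs; the dye comparison was added after the values were seen. The fit was tested on simulated data.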

Additional observations from a re-analysis of the deposited data

Results flagged for a closer look

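None of the 11 synthesis probes was far from its lot's other arrays by Dixon's criterion or differed between the lots. Of 27 probes compared between the lots, those of the neighbouring lists included, 2 differed at an unadjusted p of 0.05 or less, both named for high values in small Sept. fish, which bears on the sign. Isocitrate dehydrogenase (A_05_P265984) had a mean log2 ratio of 0.63 in Sept. and -0.39 in Dec., a difference of 1.02 (SE 0.28, limma, adjusted p = 1.00). Elongation of very long chain fatty acids protein 1 (A_05_P457892) had 0.60 in Sept. and 0.14 in Dec., a difference of 0.46 (SE 0.17, limma, adjusted p = 1.00). Of 54 sets of 4 arrays examined, 0 held an array set apart, where chance gives about 1 in 20.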

How the results depend on the processing

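Counts over all probes past the thresholds (1054 in Sept., 1647 in Dec.) moved with the test. In Sept. there were 1611 with each lot fitted alone, and 648 and 442 by the t-test over arrays and over pool pairs. There were 1853 on the 647 arrays, 2109 on the 555 arrays and 3664 with the sign turned on the 555 arrays. Trend and robust estimation gave 398, and a fold of at least 1.5 gave 569. In Dec. these were 709 and 499 by the t-tests, 4370 on the 647 arrays, 3363 on the 555 arrays, 6809 turned, 753 robust and 684 at the higher fold. Leaving out a pool pair gave 1212 to 1832 in Sept., 1182 to 3671 in Dec., and 580 to 2677 for Sept. minus Dec. (917 with all). A pool pair left alone took its spread from the other lot.

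Pool pair numbers are shared by the lots only as numbers (correlation of the deviations 0.032). With the number as a replicate block, 2131 probes passed in Sept. and 2149 in Dec., in either direction. Of the 6 Sept.-named probes, 6 passed in Dec. with this block.

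Of the 6 probes named through the Sept. list, 3 passed in Dec. This became 0 by the t-test over arrays and 1 over pool pairs. A fit of all 8 arrays that had a term for dye and treated pool pairs as random gave 6. Over all probes this fit called 2371 in Dec. in either direction, against 1647 in the main fit. Its correlation within a pool pair was 0.038, so dye flips of the same pools counted nearly as separate replicates. Its counts are therefore no test over pools. There were 0 on the 647 arrays, 6 on the 555 arrays, 0 with signs turned and 0 with trend and robust estimation. Of the 5 named elsewhere, 0 passed in Sept., and 1 with the dye term. For Sept. minus Dec. 0 of 11 passed, against 1 each with the dye term, on the 647 arrays and with signs turned, and 0 to 4 without a pool pair. The squalene monooxygenase probe A_05_P424717 was the one under the dye term and on the 647 arrays.

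Turning the sign of the 555 arrays reversed the isomerase (-0.60 in Sept., -1.24 in Dec.), farnesyl pyrophosphate synthetase (-0.213, -0.029), delta (14)-sterol reductase (-0.12, -0.17) and the lathosterol oxidase-like probes A_05_P251024 (-0.46, -0.76) and A_05_P371977 (-0.40, -0.91), and likewise squalene monooxygenase A_05_P376672 (-0.16, -0.37) and 7-dehydrocholesterol reductase A_05_P377532 (-0.35, -0.44) and A_05_P472497 (-0.27, -0.27), in both lots. The 647 arrays alone reversed the isomerase (-0.22) and A_05_P251024 (-0.071) and A_05_P371977 (-0.24) in Dec. The 7-dehydrocholesterol reductase probe A_05_P271219, near 0, changed sign on the 647 arrays (0.12 in Sept., 0.35 in Dec.), with signs turned (0.14, 0.41), and without a pool pair of the lot (-0.092 to 0.051 in Sept., -0.27 to 0.145 in Dec.). Squalene monooxygenase A_05_P424717 ran from -0.030 to 0.295 in Sept. without a pool pair, being below 0 without pool pair 1. Apart from what turning signs and dye orientation change by construction, the cause was not tested.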
